A study of Mus musculus with 12 samples.

Results

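Splenic CD4+ T cells were compared with bone marrow haematopoietic stem cells (HSC) on Affymetrix arrays, 2 T cell arrays against 3 HSC arrays, which are 5 of the 12 arrays of the series. The arrays were taken by their labels. The other 7 hold multipotent progenitors (MPP, 3 arrays) and PreMegE progenitors of platelets and red cells (4 arrays), and entered the fit for its estimate of spread. All mice were C57Bl/6 and 10 to 12 weeks old, with no treatment named. HSC were sorted as marrow cells without lineage markers that carried Kit, Sca1 and CD150 and lacked Flt3. T cells were sorted as spleen cells with CD4 and without CD8, B220 or NK1.1, a phenotype with no marker that parts naive, memory and regulatory cells. The labels do not say whether animals were pooled or whether T cell replicates came from separate mice, so p-values weigh only the spread among these samples. HSC were sorted for this study, while the T cell and PreMegE arrays came from earlier studies. Study and tissue (spleen or marrow) therefore cannot be told apart from cell type in any difference below.

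HSC renew themselves and give rise to every blood cell, under factors such as Meis1, Mecom, Tal1, Lmo2 and Gata2 and receptors for niche signals such as Kit and Tek. A T cell progenitor leaves that programme in the thymus, commits under Bcl11b and Gata3, and assembles a T cell receptor whose CD3 chains pass signals to the adaptor Lat and to nuclear factors. A mature CD4+ T cell then circulates through spleen and lymph nodes, resting outside the cell cycle until it meets antigen.

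Levels are log2 intensities of 1 probe set per gene, and differences are CD4+ T cells minus HSC on the log2 scale ± SE. Genes with an adjusted p under 0.05 in limma, by Benjamini-Hochberg, were called, and "higher" and "lower" in counts mean called. The lower quartile of gene means was 3.35 in HSC and 3.27 in CD4+ T cells. Levels below it may be background, which leaves the size of such a fold inexact. Arrays had medians of 14.4 to 15.6 on the linear scale and correlated across genes at 0.985 to 0.988 within HSC, 0.985 between the T cell arrays and 0.867 to 0.881 between the 2 groups. The 3' to 5' signal of control probe sets, by which RNA quality is judged, moved with the groups. The log2 excess of the 3' control probe set over the 5' one was, for beta-actin, 2.42, 2.64 and 2.77 on HSC replicates 1 to 3 and 0.99 and 1.13 on the T cell arrays, and that of Gapdh 4.06, 4.14 and 3.86 against 2.55 and 2.66. On the PreMegE arrays, which entered the fit, the beta-actin excess was 3.49 to 4.65. What set this excess, RNA quality or another step, and its part in the differences below were not tested. Xist, the RNA that silences an X chromosome in females, was at 12.04 on HSC replicate 1, 2.45 and 2.59 on HSC replicates 2 and 3, and 10.91 and 10.97 on the T cell arrays. The Y-linked Eif2s3y was at 7.46 and 8.47 on HSC replicates 2 and 3, 2.31 on HSC replicate 1 and 2.39 and 2.47 on the T cell arrays. The differences of Xist and Eif2s3y lie between arrays of HSC as well as between groups. By these transcripts HSC replicates 2 and 3 read as male, and HSC replicate 1 and both T cell arrays as female. Sex thus differed within HSC and in part between the groups, and its part in the differences below was not tested. When HSC replicate 1 alone stood for HSC 5458 genes were called, against 6879 with all arrays.

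The markers of both cell types held to their labels. Cd3g, a chain of the T cell receptor complex, gave 2.60, 2.72 and 2.43 on HSC replicates 1 to 3 and 11.21 and 10.73 on the T cell arrays, a difference of 8.39 ± 0.18 (adjusted p = 4.3e-14). Meis1, a homeobox factor of stem cells, was at 11.18, 11.44 and 11.54 in HSC and at 3.00 and 3.55 in T cells, a difference of -8.11 ± 0.22 (5.1e-13). The groups lay far apart for both genes, and the lower mean of each was under the lower quartile. Promoters are shown for these markers and for Cd3d, the neighbour of Cd3g on mouse chromosome 9, because Cd3g and Cd3d are read in opposite directions from first bases 1355 bases apart and were both higher in T cells. The 250 bases before the first base of each gene are RefSeq sequence of GRCm38.p6, written in the direction of the gene. Capitals mark matches, on either strand, to 5 short motifs. AGATAA is read by factors of the family of Gata3 and Gata2. TGTGGT is the core motif of the RUNX family. GGAAGT is a motif of the ETS family. CACCTG is the E-box of E proteins such as Tcf12. CTTTGA is the motif of Lef1 and its relatives, the TCF/LEF family.

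Cd3g, chr9:44980432-44980681, minus strand: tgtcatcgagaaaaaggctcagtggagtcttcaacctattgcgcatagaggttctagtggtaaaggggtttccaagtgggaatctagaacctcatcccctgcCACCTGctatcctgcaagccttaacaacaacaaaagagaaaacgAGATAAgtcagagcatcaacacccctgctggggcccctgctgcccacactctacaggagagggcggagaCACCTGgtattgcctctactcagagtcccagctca

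Cd3d, chr9:44981536-44981785, plus strand: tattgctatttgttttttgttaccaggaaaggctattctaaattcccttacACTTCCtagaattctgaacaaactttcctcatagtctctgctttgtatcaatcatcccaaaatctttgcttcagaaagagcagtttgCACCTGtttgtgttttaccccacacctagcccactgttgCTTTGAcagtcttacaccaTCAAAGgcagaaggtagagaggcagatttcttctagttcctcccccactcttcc

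Meis1, chr11:19018970-19019219, minus strand: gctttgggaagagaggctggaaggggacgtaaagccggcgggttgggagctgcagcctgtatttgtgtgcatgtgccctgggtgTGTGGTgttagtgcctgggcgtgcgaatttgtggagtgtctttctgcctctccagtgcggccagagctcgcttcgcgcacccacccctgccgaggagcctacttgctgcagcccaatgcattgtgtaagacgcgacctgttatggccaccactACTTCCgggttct

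The Cd3g promoter held the E-box at 148 and at 35 bases before the start and the GATA letters at 104 bases before it. The Cd3d promoter held the ETS letters at 199, the E-box at 112 and the TCF/LEF letters at 73 and at 54 bases before the start. The Meis1 promoter held the RUNX letters at 166 and the ETS letters at 13 bases before the start. The promoter of Hoxa9, read in the same way but not printed, held 0 matches. Over 1 promoter for each of 27025 RefSeq genes, the GATA letters occurred in 10.3%, RUNX in 14.2%, ETS in 20.0%, the E-box in 17.1% and TCF/LEF in 14.0%. Of the genes called and at least 16-fold higher in T cells, 100 had a promoter in the table, and the shares there were 7.0%, 18.0%, 26.0%, 24.0% and 20.0%. Of those at least 16-fold lower, 143 had one, with shares of 6.3%, 7.7%, 14.7%, 13.3% and 9.1%. Among the genes tested, 14452 had a promoter, with shares of 7.5%, 11.7%, 21.5%, 16.9% and 12.2%. A match is a run of letters and not a shown binding site, and these shares were not tested.

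Transcripts of the sort markers were read next. Cd4 was at 4.99, 4.99 and 4.53 in HSC and at 9.11 and 9.49 in T cells (4.46 ± 0.21, adjusted p = 1.7e-10, limma). Cd8a did not pass (-0.10 ± 0.19, 0.735), while Cd8b1, the partner chain of the CD8 coreceptor, was higher at 5.12 and 5.38 against 2.82 to 3.06 (2.32 ± 0.20). Kit, the receptor for stem cell factor, was at 10.42, 10.35 and 10.96 in HSC and at 4.03 and 2.89 in T cells (-7.11 ± 0.30). No T cell array came near an HSC array for Cd4 or Kit. Slamf1, which encodes CD150, was present in both, at 6.67 to 7.05 in HSC and 7.25 and 7.07 in T cells (0.33 ± 0.18, 0.186). Ptprc, whose CD45 protein includes the B220 isoform, was higher in T cells (2.12 ± 0.20). Flt3 was at 6.34, 6.82 and 6.63 against 5.65 and 5.80 (-0.87 ± 0.27, 0.0168), and was not called once HSC replicate 2 (0.0592) or CD4+ T cell replicate 1 (0.0979) was left out. On the next brightest probe set Cd4 differed by 2.01, Kit by -1.23 and Ptprc by 4.40.

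Of 18193 genes, 6879 were called between CD4+ T cells and HSC (37.8%). In T cells 3096 of them were higher (17.0%) and 3783 lower (20.8%). Each count of list members below is to be read beside these shares. Among the called genes, 1904 were at least 2-fold higher and 2323 at least 2-fold lower, and 138 and 178 at least 16-fold. The 12 largest rises and 12 largest falls were taken with the sort markers and with Cd3g and Meis1, given above, left out. The receptor segment Trbv1 rose most among them (9.65 ± 0.16). Ms4a4b, a membrane protein of T cells, was at 2.99, 4.30 and 3.38 in HSC and at 12.54 and 12.72 in T cells (9.07 ± 0.28). The interleukin-7 receptor gene Il7r (8.29 ± 0.23), the adhesion receptor Cd2 (8.23 ± 0.18), the brake Cd5 (8.22 ± 0.17) and the lymph node homing receptor Ccr7 (7.87 ± 0.18) followed. Ifi209, an interferon-inducible gene, the G-protein-coupled receptor Gpr18, Bcl11b, Rasgrp1, Gimap7 and Cd3d completed these 12 rises, at 7.30 to 7.72. Tfr2, a sensor of iron-loaded transferrin in the red cell line, was at 11.48, 11.41 and 11.56 in HSC and at 2.86 and 3.04 in T cells (-8.54 ± 0.17). It was followed by Bex1 (-8.44 ± 0.32), the homeobox factor Hoxa9 (-8.42 ± 0.21), Angpt1 (-8.40 ± 0.19), which encodes the Tek ligand angiopoietin-1, and the fatty acid enzyme Hacd1 (-8.04 ± 0.16). Fkbp9 (-7.86 ± 0.19), Tmem40 (-7.10 ± 0.19), the glycosyltransferase Gcnt2 (-7.02 ± 0.17), Ifitm1 (-6.91 ± 0.20), Adgrg1 (-6.82 ± 0.22), the phospholipase Pla2g4a (-6.82 ± 0.37) and Cd34 (-6.61 ± 0.20) completed these 12 falls. Of all genes, 9010 had more than 1 probe set. On the next brightest one 30 of the 364 genes named here turned direction and 42 lost their call. Genes with 1 probe set kept it in that setting, so these counts understate disagreement between probe sets. Values of the next brightest probe set stand beside some of the genes below, not all. A fold given without one can be much smaller there, as for Spc25 (-0.48), Gp1bb (-0.49) and Fasl (0.89). That the arrays of these 24 genes did not overlap was a condition for naming them and held for 54.3% of all genes. The group with the lower mean lay under its lower quartile for 6 of the rises, Trbv1, Cd2, Cd5, Ccr7, Rasgrp1 and Gimap7, and for all 12 falls except Tmem40, Ifitm1 and Cd34. Pla2g4a was uneven between the T cell arrays, at 2.13 and 4.05. On the next brightest probe set the differences were 0.76 for Rasgrp1, 2.02 for Trbv1, -0.96 for Hoxa9 and -1.34 for Angpt1.

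**Figure D1:**
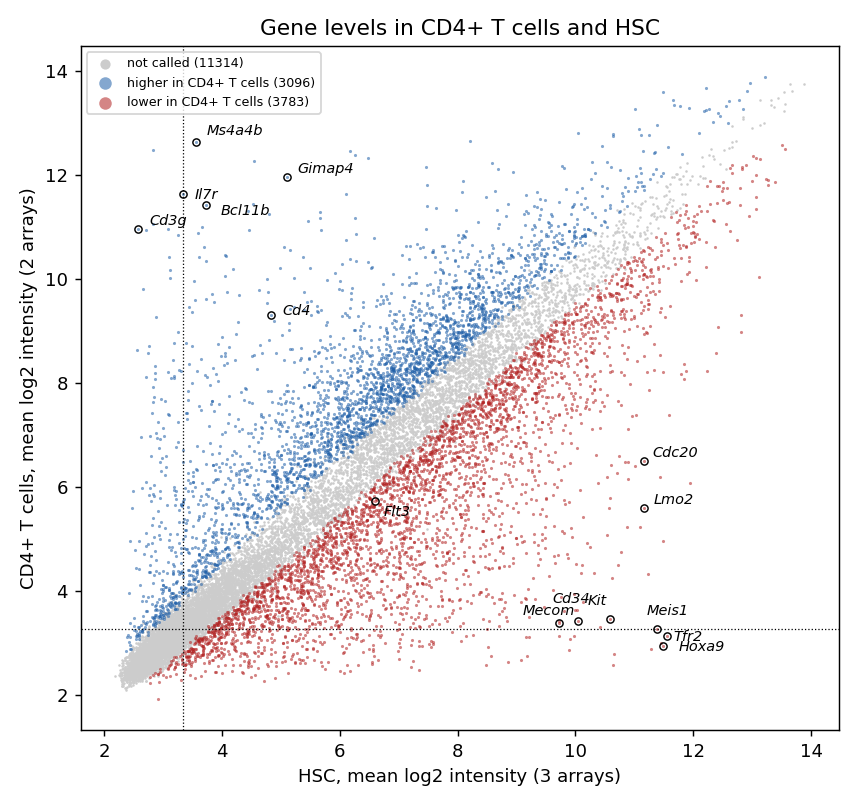
Mean log2 intensity of each of 18193 genes in HSC (3 arrays, horizontal) and CD4+ T cells (2 arrays, vertical), with the 3096 genes called higher and the 3783 called lower in T cells in colour and dotted lines at the lower quartile of gene means of each group (3.35 and 3.27). Named T cell genes lie far above the diagonal and named stem cell genes far below it, several of them at or under a dotted line in the group where they are low.

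The T cell receptor complex and its coreceptors were higher as a group. Of 9 measured members, 7 were higher and 0 lower, with a median difference of 4.46 where the median over all genes was -0.06. Cd3d was at 3.61, 3.59 and 3.56 in HSC and at 11.06 and 10.71 in T cells (7.30 ± 0.17). Cd247, the zeta chain that carries most of the signalling motifs, was at 3.63 to 3.80 and at 10.55 and 10.68 (6.91 ± 0.17). Cd3e differed less, at 5.32 to 5.66 and 8.23 and 8.69 (2.98 ± 0.20). The receptor-associated adaptor Trat1 (4.51 ± 0.20), Cd4 and Cd8b1 were the other higher members. HSC arrays lay below T cell arrays for all 7, which for Cd3d was a condition of its place among the largest rises. Arrays of the 2 groups did not overlap for 54.3% of all genes. Cd8a and the pre-receptor chain Ptcra (0.40 ± 0.21, adjusted p = 0.150) did not pass, and Ptcra passed without CD4+ T cell replicate 1 (0.70, 0.0318). On its next brightest probe set Cd247 differed by 2.30. Summed over the 9 members the intensity was 143 to 173 on the HSC arrays, 137 to 176 on MPP and PreMegE arrays and 6485 to 7169 on the T cell arrays.

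**Figure D2:**
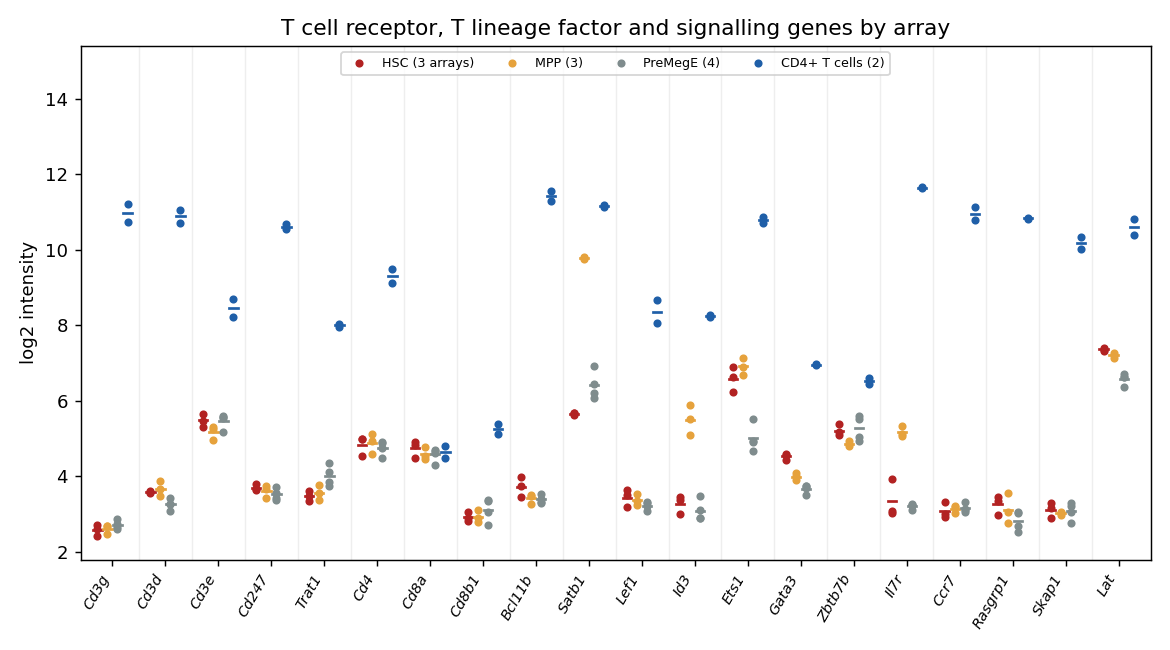
Log2 intensity of T cell receptor, signalling and T lineage factor genes on every array, as points, with group means as short lines, in HSC (3 arrays), MPP (3), PreMegE (4) and CD4+ T cells (2). T cell points lie above all HSC points for every gene shown except Cd8a, and Satb1 (9.79), Id3 (5.51) and Il7r (5.18) also have MPP means above those of HSC.

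Costimulatory and inhibitory receptors of the T cell surface showed the same direction in 22 of 24 measured members, with 0 lower and a median of 4.57. Cd28, which gives the second signal for activation, was at 2.40, 2.77 and 2.79 in HSC and at 9.34 and 10.28 in T cells (7.15 ± 0.35). Icos (6.42 ± 0.32), a related costimulator of helper cells, and the surface glycoproteins Thy1 (6.44 ± 0.26) and Cd52 (6.29 ± 0.24) were higher. So were the inhibitory receptors Ctla4, at 3.30 and 8.23 on average in HSC and T cells (4.93 ± 0.27), and Pdcd1, at 3.01 and 7.13 (4.12 ± 0.21). Cd69, which activated cells show early, was at 5.57 and 8.62 (3.05 ± 0.30). The 2 members that did not pass were Cd226 and Cd40lg, the ligand by which helper cells engage B cells, at 4.44 and 4.48 (0.04 ± 0.19, adjusted p = 0.896, limma). The list's summed intensity was 775 to 895 on HSC arrays and 33179 to 33488 on T cell arrays.

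Genes that carry the receptor signal inward were mostly higher, but not uniformly so. Of 39 members 27 were higher and 4 lower, with a median of 1.96. Among kinases, Fyn was at 7.81, 7.97 and 8.22 in HSC and 10.94 and 10.76 in T cells (2.85 ± 0.19), Txk rose from 3.64 to 8.47 on average (4.83 ± 0.22) and the protein kinase C theta gene Prkcq from 8.15 to 10.93 (2.78 ± 0.16). Among adaptors, Lat was at 7.41, 7.36 and 7.33 in HSC and at 10.81 and 10.39 in T cells (3.24 ± 0.17), with HSC levels well over the lower quartile. Skap1 (7.06 ± 0.19), Sh2d1a (6.06 ± 0.19), Sit1 (5.38 ± 0.21), Grap2 (4.02 ± 0.19) and Lcp2 (2.45 ± 0.21) were higher too. Rasgrp1, which turns on Ras, rose by 7.58 ± 0.23, and Dgka, a kinase that removes the lipid which activates it, by 5.84 ± 0.24, from 6.12 to 6.77 on HSC arrays to 12.24 and 12.41. Negative regulators were among the rises, with Ubash3a (3.64 ± 0.20), Ptpn22 (2.96 ± 0.23) and Ptpn6 (1.57 ± 0.18), beside the nuclear factors Nfatc1 (1.90 ± 0.28), Nfatc2 (1.58 ± 0.22) and Nfatc3 (1.55 ± 0.23). The share of members called higher, 27 of 39, stands against 17.0% of all genes.

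The 4 lower members were Plcg2, Syk, Vav2 and Zap70. Plcg2, the phospholipase of B cells and myeloid cells, was at 9.98, 10.11 and 9.62 in HSC and 5.93 and 5.51 in T cells (-4.18 ± 0.22), whereas its T cell counterpart Plcg1 was higher (1.96 ± 0.17). Syk, the kinase that B cells use in the place of Zap70, was at 9.19 to 9.28 in HSC and 6.95 and 6.07 in T cells (-2.73 ± 0.21), and Vav2 was lower (-1.09 ± 0.23). Zap70 itself gave no single direction. Its brightest probe set was lower in T cells (-1.02 ± 0.21), its next brightest higher by 2.83, and 2 of its 3 probe sets were called higher. On the next brightest probe set Vav2 (-0.10), Grap2 (0.46) and Pag1 (0.15) did not pass, Plcg1 gave -0.55, Nfatc2 -0.54, Vav1 -1.19 and Dgkz 1.66. Vav1 and Dgkz had not passed before (0.47 and -0.11). Among members that did not pass, Vav3 passed without CD4+ T cell replicate 1 (-1.59, adjusted p = 6.2e-04), Stim1 without replicate 1 (0.56, 0.0437) and Bcl10 without replicate 2 (0.87, 0.0188).

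Of 24 measured T lineage transcription factors 18 were higher and 2 lower, with a median of 2.22. Bcl11b, which seals T cell commitment, was at 3.74, 3.98 and 3.45 in HSC and at 11.29 and 11.57 in T cells (7.70 ± 0.18), and all 4 of its probe sets were higher. Satb1, a chromatin organiser, was at 5.64 to 5.68 and at 11.14 and 11.20 (5.50 ± 0.21), also on all of its 5 probe sets. Lef1, a factor of naive T cells, was at 3.18 to 3.63 and at 8.07 and 8.66 (4.93 ± 0.20). The E protein inhibitors Id2 (4.97 ± 0.29) and Id3 (4.97 ± 0.24), Ets1 (4.20 ± 0.24) and Bach2 (4.02 ± 0.32), which holds T cells quiescent, were higher. The 2 factors that set the CD4 lineage differed less, Gata3 at 4.44 to 4.59 against 6.94 and 6.98 (2.43 ± 0.15) and Zbtb7b at 5.10 to 5.38 against 6.45 and 6.62 (1.31 ± 0.20). Klf2, which keeps naive cells circulating, was higher by 3.84 ± 0.62 but uneven in HSC, at 8.50 on replicate 1 and 5.72 and 5.23 on replicates 2 and 3, and by 1.83 when replicate 1 alone stood for HSC. Foxo1 (2.34 ± 0.19), an inducer of Klf2 and Il7r, and Ikzf1 (2.11 ± 0.20), the Ikaros factor, were higher as well.

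The lower members were Runx3, which represses Cd4 in the CD8 lineage, at 8.84 to 9.09 in HSC and 7.09 and 7.58 in T cells (-1.62 ± 0.30), and Tcf12, an E protein, at 10.42 to 10.72 and 9.92 and 9.43 (-0.92 ± 0.24). The call of Tcf12 ended without CD4+ T cell replicate 2 (-0.68, adjusted p = 0.105). Both genes turned on their next brightest probe set, Runx3 to 0.38 and Tcf12 to 0.08, and Ikzf1 (0.06) and Foxp1 (0.38) did not pass there. Ikzf3 did not pass on its brightest probe set (0.02 ± 0.22) and gave 3.95 on the next, and Aff3 gave -0.26 and 2.24. Rora (1.18 ± 0.35) gave -0.28 on its next brightest probe set, and it was not called with HSC replicate 1 (0.78, 0.0645) or CD4+ T cell replicate 1 (0.94, 0.131) left out. Of the members that did not pass, Tcf3 passed without CD4+ T cell replicate 1 (-0.93, 0.0249) and Zeb1 without HSC replicate 3 (0.58, 0.0332).

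Receptors of traffic and survival had 17 of 23 members higher and 1 lower, with a median of 1.82. Il7r, the receptor for a cytokine that keeps resting T cells alive, was at 3.02, 3.94 and 3.09 in HSC and at 11.63 and 11.66 in T cells. Ccr7 was at 2.92 to 3.32 and at 10.78 and 11.13, Cxcr3, a receptor of T cells drawn to inflamed tissue, at 3.70 to 4.04 and at 9.75 and 9.67 (5.87 ± 0.19), and the gut-homing integrin chain Itgb7 at 5.87 to 6.30 and at 11.54 and 11.74 (5.53 ± 0.18). S1pr1, by which T cells leave lymph nodes, rose from 4.88 to 9.19 on average (4.31 ± 0.27). The groups did not overlap for these 5 genes, as for 54.3% of all genes. For Il7r and Ccr7 this was a condition of their place among the largest rises. Cd44, an adhesion receptor for hyaluronan, was the lower member, at 9.56 and 8.72 on average (-0.83 ± 0.23), and missed the threshold on the next brightest probe set (-0.26).

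Cytokine receptors of lymphocytes were higher in 11 of 21 members and lower in 0, with a median of 0.92 (52.4% called, against 37.8% of all genes). Il18r1, the interleukin-18 receptor, was at 3.80 and 7.96 on average (4.16 ± 0.29) and Il6st, the shared chain of interleukin-6 receptors, at 5.62 and 9.49 (3.87 ± 0.22). Il2ra, the high-affinity chain for interleukin-2, was at 2.61 to 3.02 in HSC and at 6.28 and 5.80 in T cells (3.19 ± 0.19), and Tgfbr2 was higher (3.06 ± 0.22). Il2rb did not pass on its brightest probe set (0.09 ± 0.24) and was higher by 3.07 on the next. On that probe set Il6st at 0.38, Il2ra at 0.43 and Tgfbr2 at 0.48 did not pass.

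All 8 measured Gimap GTPases, a family on lymphocyte membranes tied to their survival, were higher, with a median of 2.75. Gimap7 was at 3.18, 3.27 and 2.84 in HSC and at 10.22 and 10.62 in T cells (7.32 ± 0.20), and Gimap4 at 4.84 to 5.42 and at 11.90 and 12.02 (6.86 ± 0.21). Gimap3 rose by 5.65 ± 0.23. The remaining members differed by less, Gimap6 from an HSC mean of 7.58 (2.94 ± 0.19), Gimap9 from 6.34 (2.56 ± 0.26), Gimap8 from 9.16 (2.45 ± 0.27), Gimap1 from 7.86 (1.66 ± 0.16) and Gimap5 from 6.51 (1.06 ± 0.25). Differences in the family ran from 1.06 to 7.32.

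Genes of helper and regulatory subsets were higher in 16 of 20 members and lower in 0, with a median of 2.93. Cxcr5, a receptor of follicular helper cells, was at 2.75 to 3.03 in HSC and at 8.07 and 8.58 in T cells (5.47 ± 0.22), and Bcl6, the factor of that subset, was at 3.68 and 6.70 on average (3.02 ± 0.27). Foxp3, which defines regulatory T cells, was at 2.94, 3.13 and 2.83 in HSC and at 6.53 and 6.43 in T cells (3.52 ± 0.18), beside Izumo1r (4.46 ± 0.21) and Nrp1 (4.94 ± 0.25), surface proteins of that subset. The factor Maf (5.23 ± 0.22) and the T helper 1 genes Tbx21 (2.83 ± 0.20) and Ifng (3.43 ± 0.20) were higher. The cytokine genes Il5, Il10, Il13 and Il17a did not pass, with differences of 0.10 to 0.39. Il2 was higher by 0.86 ± 0.20, a call that ended without CD4+ T cell replicate 1 (0.50, adjusted p = 0.0768). In a bulk sample fewer cells of a subset and less RNA per cell cannot be told apart. On the next brightest probe set Maf (0.43) did not pass and Bcl6 gave -0.12.

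Genes named for stem cells, many of them also high in MPP and PreMegE, moved the other way. Of 34 stem cell transcription factors 26 were lower in T cells and 3 higher, with a median of -3.28, and lower genes made up 20.8% of all genes. Mecom, which stem cells require to persist, was at 9.76, 9.48 and 9.92 in HSC and at 3.62 and 3.18 in T cells (-6.32 ± 0.25). Hlf, a factor restricted to immature cells, was at 10.65 to 10.76 and at 4.47 and 4.53 (-6.22 ± 0.19). Mycn was at 10.44, 10.88 and 11.01 and at 4.91 and 4.58 (-6.03 ± 0.25). For these 3, as for Meis1, the groups were separated widely while the SDs within groups were 0.04 to 0.39. The MPP means of Mecom and Hlf, 8.89 and 10.46, were near those of HSC, and the PreMegE means, 4.17 and 5.50, were nearer to those of T cells. Other factors were high in both progenitor groups. The MPP and PreMegE means were 11.36 and 11.41 for Lmo2, 8.47 and 9.49 for Tal1 and 9.02 and 10.83 for Gata2. Over the 34 factors the median level was 8.38 to 8.63 on HSC arrays, 7.33 in MPP and 7.65 in PreMegE. On T cell arrays it was 4.61 to 4.88. The lower level in T cells is therefore not particular to the comparison with HSC.

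The factors that form the stem cell and red cell regulatory complex were lower together. Tal1 was at 9.64, 9.31 and 9.93 in HSC and at 3.97 and 4.09 in T cells (-5.59 ± 0.19), Lmo2 at 11.00 to 11.26 and at 5.41 and 5.82 (-5.55 ± 0.18), and Gata2 at 10.49 to 10.60 and at 6.16 and 6.24 (-4.34 ± 0.16). Lyl1, a relative of Tal1, fell by 4.16 ± 0.18. Ldb1, which bridges the complex, was the exception, at 6.68 to 7.01 in HSC and 7.75 and 8.55 in T cells (1.30 ± 0.28). Nfe2 (-5.88 ± 0.19) and Gfi1b (-4.70 ± 0.21), factors of platelet and red cell precursors, Hhex (-4.46 ± 0.16), Erg (-5.09 ± 0.29) and Myb (-3.48 ± 0.16) were lower. Myb kept a level of 8.47 and 8.25 on the T cell arrays, against 11.70 to 11.95 in HSC. Gfi1, the sister gene of Gfi1b, was higher in T cells (1.62 ± 0.29), at 4.32, 5.01 and 5.66 against 6.90 and 6.34. Bcl11a was lower (-5.62 ± 0.21), on 5 of its 7 probe sets, while its relative Bcl11b was higher, as given above.

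Some factors of stem cells did not pass. Runx1, required when stem cells first form, was at 8.48 to 8.79 in HSC and 8.46 and 8.35 in T cells (-0.20 ± 0.20, adjusted p = 0.485, limma), and Fli1 at 6.96 to 7.86 and 8.31 and 7.58 (0.50 ± 0.30, 0.231). Runx1 was lower on its next brightest probe set (-1.22), and 1 of its 6 probe sets was called higher and 1 lower. The myeloid factor Spi1 was lower (-1.11 ± 0.24), and Cebpa did not pass (-0.26 ± 0.24, 0.446). Cebpb was called lower (-0.83 ± 0.28) and turned on its next brightest probe set (0.81), and it was not called with HSC replicate 1 (-0.66, 0.106) or CD4+ T cell replicate 2 (-0.30, 0.486) left out. Egr1 (-1.24 ± 0.35) lost its call without CD4+ T cell replicate 2 (-1.21, 0.0577). Rarg (0.73 ± 0.22), the third higher member, lost its call with HSC replicate 3 (0.53, 0.0707) or CD4+ T cell replicate 1 (0.63, 0.117) left out. On the next brightest probe set Mecom (-0.40), Mycn (-0.10), Erg (-0.36), Prdm16 (-0.34), Nkx2-3 (-0.27) and Rarg (0.28) did not pass, and Zfpm1 gave 0.06 against -2.02 ± 0.20.

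**Figure D3:**
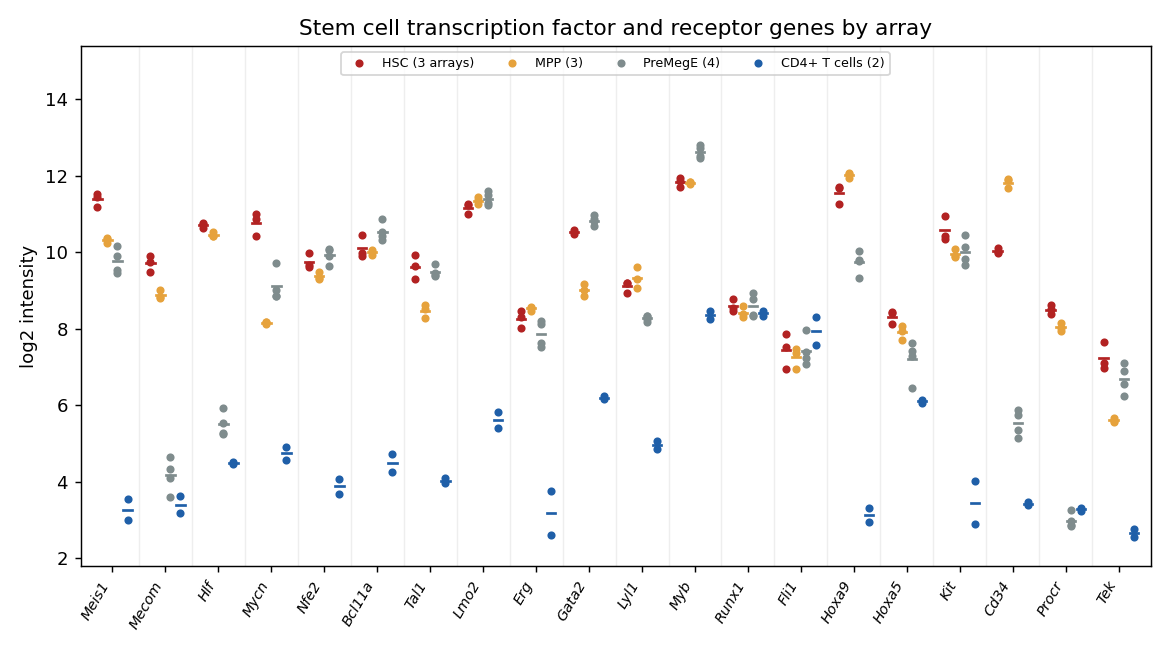
Log2 intensity of stem cell transcription factor and receptor genes on every array, as points, with group means as short lines, in HSC (3 arrays), MPP (3), PreMegE (4) and CD4+ T cells (2). T cell points lie below all HSC points except for Fli1, with Runx1 close (8.46 and 8.35 against 8.48 to 8.79). The PreMegE means of Mecom (4.17), Hlf (5.50), Cd34 (5.54) and Procr (2.99) also lie well below those of HSC. The PreMegE means of Lmo2 (11.41), Tal1 (9.49), Gata2 (10.83) and Bcl11a (10.54) lie near or above those of HSC.

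Of 16 Hoxa and Hoxb genes, which set the self-renewal capacity of immature cells, 7 were lower and 0 higher, with a median of -0.55. Called members made up 43.8%, against 37.8% of all genes. Hoxa9 was at 11.69, 11.27 and 11.71 in HSC and at 2.95 and 3.33 in T cells. Hoxa5 was at 8.12 to 8.43 and at 6.07 and 6.15 (-2.22 ± 0.27), Hoxa10 at 4.52 to 5.87 and at 2.50 and 2.77 (-2.62 ± 0.32) and Hoxb5, a gene of long-term stem cells, at 4.30 to 5.13 and at 2.65 and 2.94 (-2.03 ± 0.25). The 9 that did not pass differed by -0.59 (Hoxa2) to 0.16 (Hoxa11), and of these Hoxa7 had the highest level, at 5.85 and 5.34 on average. Hoxb4 (-0.73 ± 0.23) lost its call without HSC replicate 1 (-0.61, adjusted p = 0.0808) or 3 (-0.67, 0.0584) or CD4+ T cell replicate 1 (-0.73, 0.0809) or 2 (-0.74, 0.0815). Hoxa10 missed the threshold on the next brightest probe set (-0.36).

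Surface receptors of stem cells were lower in 28 of 36 members and higher in 1, with a median of -1.74. Cd34, a sialomucin of immature cells, was at 9.98 to 10.12 in HSC and at 3.47 and 3.39 in T cells. Procr, a receptor by which stem cells are isolated, was at 8.38 to 8.62 and at 3.24 and 3.33 (-5.22 ± 0.17), and Tek, the angiopoietin receptor, at 6.97 to 7.65 and at 2.78 and 2.55 (-4.58 ± 0.24). Its ligand gene Angpt1 was at 11.27 to 11.32 in HSC and at 2.94 and 2.85 in T cells. For Tek the T cell arrays lay below all HSC arrays, and arrays of the 2 groups did not overlap for 54.3% of all genes. For Angpt1 this was a condition of its place among the largest falls. Itga2b, the platelet integrin chain that encodes CD41, was at 10.45 to 10.63 and at 4.91 and 5.28 (-5.45 ± 0.20), and Eng, which encodes CD105, at 7.74 to 8.11 and at 5.17 and 6.23 (-2.23 ± 0.26). The higher member was the tetraspanin Cd82 (0.86 ± 0.25), which gave -0.60 on its next brightest probe set and lost its call with HSC replicate 1 (0.63, adjusted p = 0.0555) or CD4+ T cell replicate 2 (0.67, 0.122) left out.

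Other genes tied to stem cells were lower in 29 of 34 members and higher in 1, with a median of -3.70. Ifitm1, an interferon-induced membrane protein, was at 11.08 to 11.48 in HSC and at 4.61 and 4.05 in T cells, Mmrn1, a multimerin of platelet granules, at 9.50 to 10.02 and at 3.13 and 3.17 (-6.57 ± 0.20), and the membrane mucin Muc13 at 10.39 to 10.84 and at 4.34 and 4.15 (-6.37 ± 0.19). Mmrn1 gave 0.01 on its next brightest probe set. The higher member was the cytokine signalling inhibitor Socs2 (1.18 ± 0.31), which was uneven in T cells, at 5.39 and 6.68, gave -1.79 on its next brightest probe set, and lost its call without CD4+ T cell replicate 2 (0.54, adjusted p = 0.188).

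Genes of later myeloid lineages, some of which HSC transcribe before commitment, were read by lineage. Of 24 megakaryocyte and platelet genes 17 were lower and 1 higher, with a median of -1.19. Vwf, the platelet adhesion protein, was at 8.72, 8.47 and 8.52 in HSC and at 2.71 and 2.79 in T cells (-5.82 ± 0.24), and Pf4, the platelet chemokine, at 10.64 to 11.09 and at 4.81 and 5.66 (-5.63 ± 0.25). The receptor genes Gp5 (-3.74 ± 0.26) and Gp1bb (-3.53 ± 0.23) were lower. Itgb3, the partner of Itga2b, was the higher member at 8.58, 8.10 and 7.43 against 8.98 and 9.24 (1.07 ± 0.34), a call that ended without HSC replicate 3 (0.77, adjusted p = 0.0813), without CD4+ T cell replicate 2 (0.95, 0.121) and on its next brightest probe set (0.38). The list summed to 4817 to 5059 on HSC arrays, 1909 to 2067 on MPP arrays, 1449 to 1671 on PreMegE arrays and 1009 to 1174 on T cell arrays.

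Of 29 erythroid genes 17 were lower and 5 higher, with a median of -1.16. Over all genes 20.8% were lower and 17.0% higher, so the share of higher members was near that of all genes. Car1, a carbonic anhydrase of red cells, was at 9.57, 10.26 and 10.57 in HSC and at 3.83 and 3.76 in T cells (-6.34 ± 0.27), and the water channel Aqp1 at 7.95 to 8.52 and at 3.52 and 4.02 (-4.45 ± 0.24). The regulators Gata1 (-3.39 ± 0.17) and Klf1 (-3.08 ± 0.23) were lower. Of the higher members, Alas2, the first enzyme of heme synthesis in red cells, was at 3.26, 5.53 and 3.49 in HSC and at 7.42 and 9.35 in T cells (4.30 ± 0.57), Slc4a1, the red cell anion exchanger, at 2.92, 6.94 and 4.25 and at 6.13 and 8.54 (2.64 ± 0.82), and Trim10 at 3.97 to 4.74 and at 5.22 and 7.32 (2.04 ± 0.43). The heme enzyme gene Fech (0.78 ± 0.17) and the embryonic globin Hbb-bh1 (0.96 ± 0.22) were the others. For Slc4a1 HSC replicate 2 lay above CD4+ T cell replicate 1. CD4+ T cell replicate 2 and HSC replicate 2 were the high arrays of their groups for Alas2, Slc4a1 and Trim10. Probe sets shared by several globin genes moved with them. The beta-globin probe set gave 7.77, 11.39 and 8.93 on HSC replicates 1 to 3 and 12.91 and 13.59 on the T cell arrays, and the brightest of 3 alpha-globin probe sets at 5.97, 11.21 and 8.40 and at 13.39 and 14.02. Slc4a1 lost its call without CD4+ T cell replicate 2 (1.43, adjusted p = 0.293), HSC replicate 1 (1.74, 0.0827) or HSC replicate 3 (2.41, 0.0527), Hbb-bh1 without CD4+ T cell replicate 2 (0.72, 0.0532), and Trim10 gave 0.99 without that array. The part of red cell RNA in these values was not tested.

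Of 27 granulocyte and monocyte priming genes 11 were lower and 8 higher, with a median of -0.53 (70.4% called, against 37.8% of all genes). The granule enzymes were lower, Prtn3 at 10.46, 10.27 and 9.29 in HSC against 4.51 and 4.53 in T cells (-5.49 ± 0.35), Mpo at 8.10, 8.25 and 6.65 against 3.33 and 4.09 (-3.96 ± 0.66) and Lyz1 at 11.87 to 12.47 against 8.33 and 8.14 (-3.99 ± 0.20). Members of the phagocyte oxidase were higher, with Ncf4 at 5.66 to 6.15 and at 8.84 and 8.96 (3.07 ± 0.21), Cyba at 7.74 to 8.32 and at 10.87 and 10.82 (2.75 ± 0.19) and Cybb (2.86 ± 0.30). The protease inhibitor Cst7 was higher as well (2.92 ± 0.17). The 4 largest rises were therefore 3 oxidase subunits and Cst7, and the 4 largest falls were 3 granule enzymes and Plac8 (-2.59 ± 0.19).

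Cell division genes were lower almost throughout. Of 39 mitosis genes 37 were lower in T cells and 0 higher, with a median of -2.95. Cdc20, which starts anaphase, was at 11.00, 11.07 and 11.40 in HSC and at 6.49 and 6.53 in T cells (-4.65 ± 0.18), the kinase Aurkb at 8.61 to 8.98 and at 3.83 and 3.90 (-4.87 ± 0.20), and the kinetochore gene Spc25 at 9.50 to 9.81 and at 5.44 and 3.91 (-4.96 ± 0.31). Mki67, the proliferation marker Ki-67, was at 10.78 to 11.22 and at 8.09 and 7.87 (-2.95 ± 0.25). The exceptions were Kif23 (-0.51 ± 0.29, adjusted p = 0.198, limma) and Cenpa (-0.41 ± 0.23, 0.200), which passed without CD4+ T cell replicate 1 (-0.87, 0.00679). CD4+ T cell replicate 2 was lower than replicate 1 for Spc25 and for the spindle kinesin Kif2c (4.31 and 3.40). The list summed to 21155 to 26393 on HSC arrays, 18421 to 19916 on MPP arrays, 11280 to 15429 on PreMegE arrays and 2319 to 2968 on T cell arrays.

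Of 42 DNA replication genes 39 were lower and 0 higher, with a median of -2.13. Cdc6, which licenses origins, was at 8.61, 8.73 and 9.02 in HSC and at 3.88 and 3.49 in T cells (-5.10 ± 0.22), and Ung, a uracil glycosylase, at 10.63 to 10.80 and at 6.90 and 5.66 (-4.43 ± 0.26). E2f8 (-4.47 ± 0.28) and the checkpoint gene Clspn (-4.38 ± 0.18) were lower too, but gave 0.19 and 0.08 on their next brightest probe sets. Pcna, the sliding clamp, was at 11.32 to 11.40 and at 11.04 and 11.25 and did not pass (-0.23 ± 0.19, adjusted p = 0.391, limma). Gins3 (-0.15 ± 0.21) and Rpa1 (0.47 ± 0.19, 0.0665) did not pass either, although Rpa1 was higher without HSC replicate 3 (0.63, 0.0163) and under cyclic loess (0.75). The list summed to 43705 to 48874 on HSC arrays and 14991 to 15164 on T cell arrays.

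Regulators of the G1 phase split, with 9 of 22 higher, 7 lower and a median of 0.14 (72.7% called, against 37.8% of all genes). Cdk6, the kinase that drives stem cells out of rest, was at 10.88 to 11.17 in HSC and at 7.41 and 7.36 in T cells (-3.65 ± 0.21), and its partner Ccnd1 at 7.24 to 7.63 and at 5.31 and 4.45 (-2.59 ± 0.26), while Ccnd2 was higher (0.99 ± 0.24). The inhibitor Cdkn1c, which stem cells use, was at 6.93, 5.88 and 6.82 and at 3.53 and 3.62 (-2.97 ± 0.25). Cdkn1b, the inhibitor p27 of resting lymphocytes, was at 7.03 to 7.59 and at 8.25 and 8.78 (1.26 ± 0.20). The antiproliferative genes Btg1, at 8.31 to 9.12 and at 11.98 and 12.25 (3.42 ± 0.26), and Btg2 (3.25 ± 0.33) were higher. Inhibitors thus stood on both sides, Cdkn1c higher in HSC and Cdkn1b higher in T cells. The call of Ccnd2 ended without CD4+ T cell replicate 2 (0.60, adjusted p = 0.0954), and that of Ccnd1 on its next brightest probe set (-0.78).

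Immediate early and stress genes, which respond to the handling of cells within minutes, had 10 of 27 lower, 6 higher and a median of -0.46. Over all genes 20.8% were lower and 17.0% higher. Fos was at 12.76 to 12.88 in HSC and at 10.10 and 8.49 in T cells (-3.52 ± 0.42), and Fosb at 8.87, 8.72 and 7.73 and at 3.26 and 3.68 (-4.97 ± 0.27). Egr2, a factor induced by receptor signals in T cells, was at 3.70 to 4.48 and at 8.98 and 8.78 (4.88 ± 0.21). HSC replicate 1 stood apart from replicates 2 and 3 for some members. Nr4a1, which receptor signals induce, was at 9.49, 7.09 and 6.73 in HSC and at 7.92 and 7.37 in T cells, and its difference of -0.13 ± 0.55 did not pass with all arrays and was 0.73 without HSC replicate 1 (adjusted p = 0.0360). The chaperone Hspa1a was at 3.92, 9.34 and 9.20 and at 4.10 and 6.31, and its difference of -2.28 ± 1.11 passed without that array (-4.06).

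**Figure D4:**
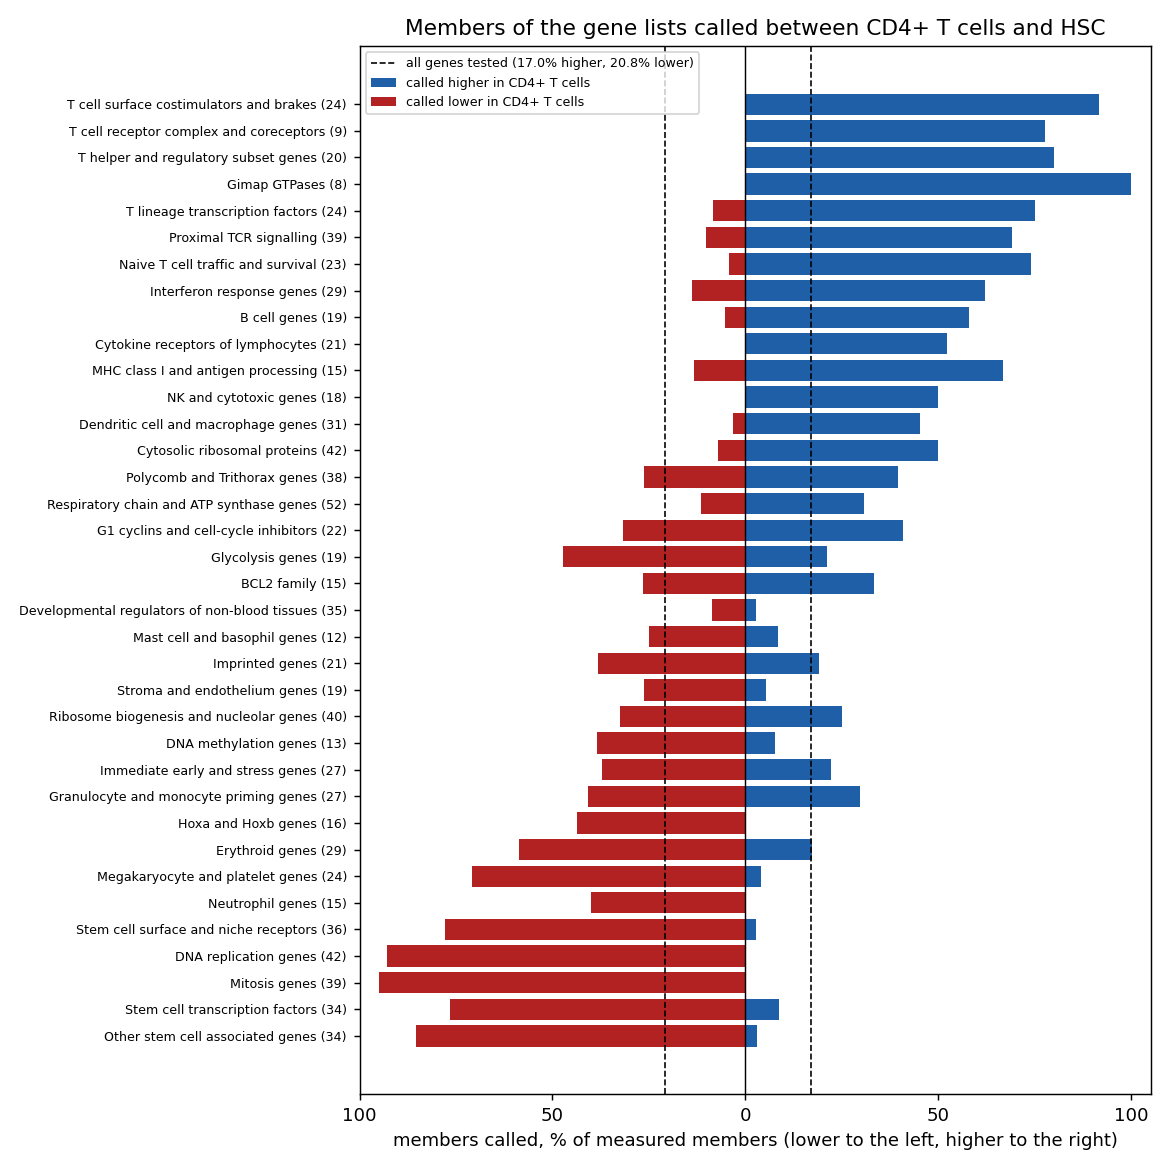
Share of the measured members of each gene list called higher (to the right) or lower (to the left) in CD4+ T cells than in HSC, in percent, with the number of measured members after each name and dashed lines at the shares over all genes (17.0% higher and 20.8% lower). Lists are ordered by median difference, with T cell surface and receptor lists at the top and mitosis, replication and stem cell lists at the bottom.

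Metabolic and growth lists had medians from -0.17 to 0.39. Of 74 listed cytosolic ribosomal protein genes 42 were measured. Called members made up 57.1% of these and 57.5% of ribosome biogenesis genes, against 37.8% of all genes. The ribosomal protein list summed to 236389 to 243700 on HSC arrays and 324067 to 326921 on T cell arrays. Of 42 measured cytosolic ribosomal protein genes 21 were higher and 3 lower, with a median of 0.39, led by Rps15 at 9.65 to 10.37 in HSC and 12.87 and 12.75 in T cells (2.76 ± 0.27), Fau (2.15 ± 0.25) and Rpl41 (2.11 ± 0.17), whose 4 probe sets were split, 2 higher and 2 lower. Of 40 ribosome biogenesis genes 10 were higher and 13 lower (median -0.17), among them the nucleolar genes Gar1 (-1.48 ± 0.23) and Gnl3 (-1.38 ± 0.17). Of 52 respiratory chain and ATP synthase genes 16 were higher and 6 lower (42.3% called, against 37.8% of all genes, median 0.17), led by Sdhb (1.64 ± 0.18) and Cox7a2 (1.47 ± 0.20). Of 19 glycolysis genes 4 were higher and 9 lower (median 0.03). Hk2, a hexokinase, was at 7.32 to 7.45 and at 3.68 and 2.95 (-4.05 ± 0.22), and Tpi1 was lower (-2.37 ± 0.17) where Pfkp was higher (1.67 ± 0.25). Enzymes of glycolysis therefore changed in both directions, and 9 of 19 lower compares with 20.8% of all genes.

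Markers of other cells that a splenic sort could hold were read on the same arrays. Of 19 B cell genes 11 were higher and 1 lower in T cells, with a median of 0.97. Ighm, the immunoglobulin heavy chain, was at 5.04, 9.04 and 4.71 in HSC and at 12.28 and 12.49 in T cells (6.12 ± 1.40), on 5 of its 11 probe sets and lower on 1. Pou2af1, a B cell coactivator, was at 2.50 to 3.41 and at 7.80 and 7.03 (4.61 ± 0.27), Ms4a1, which encodes CD20, at 2.66 to 3.42 and at 6.45 and 6.76 (3.56 ± 0.20), and Spib at 2.88 to 3.70 and at 5.71 and 5.68 (2.35 ± 0.21). Cd79a, the receptor chain that defines B cells, was at 3.79 to 3.92 and at 4.83 and 4.66 (0.87 ± 0.17). Its partner chain Cd79b was at 5.75 and 7.13 on average in HSC and T cells, and was higher by 1.37. Pax5, the factor of B cell identity, was lower on its brightest probe set (-0.74 ± 0.22), gave 0.25 on the next and lost its call without CD4+ T cell replicate 2 (-0.69, adjusted p = 0.0788), and Ebf1 did not pass, at 2.98 and 2.80. On the T cell arrays Ighm, Pou2af1 and Ms4a1 were high while Ebf1 lay under the lower quartile. The list summed to 392 to 1035 on HSC arrays, 1507 to 2213 on MPP arrays, 287 to 990 on PreMegE arrays and 5917 to 6675 on T cell arrays. Ighm alone made up most of this linear sum on the MPP and T cell arrays. The part of B cell RNA in the T cell arrays was not tested.

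Of 18 NK and cytotoxic genes 9 were higher and 0 lower, with a median of 0.78. The lectin receptors Klrd1, at 2.65, 3.84 and 3.01 in HSC and 8.83 and 8.04 in T cells (5.27 ± 0.34), and Klrg1, at 3.65 to 3.94 and 7.79 and 7.53 (3.83 ± 0.24), were higher. So were the pore-forming Prf1 (3.21 ± 0.24), the death ligand Fasl (3.40 ± 0.25), the protease Ctsw (3.36 ± 0.24) and Gzma (1.12 ± 0.22). Ncr1, the defining receptor of NK cells, was at 3.33 to 3.52 and at 3.45 and 3.65 and did not pass (0.12 ± 0.21, adjusted p = 0.725, limma). Prf1 missed the threshold on the next brightest probe set (0.17). The list summed to 252 to 353 on HSC arrays and 1520 to 1750 on T cell arrays, and its part in the T cell values was not tested.

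Of 31 dendritic cell and macrophage genes 14 were higher and 1 lower, with a median of 0.53 (48.4% called, against 37.8% of all genes). The antigen presentation genes Cd74, the invariant chain, at 5.38 to 5.90 in HSC and 8.89 and 8.14 in T cells (2.93 ± 0.22), H2-Eb1, at 6.07 to 6.87 and 9.48 and 8.72 (2.73 ± 0.28), and H2-Aa, at 8.94 to 10.20 and 11.07 and 10.65 (1.35 ± 0.28), were higher. The macrophage receptor Csf1r was at 6.15, 7.77 and 6.81 and at 8.29 and 8.25 (1.36 ± 0.36). The defining genes of dendritic cells, Itgax (0.49 ± 0.28, adjusted p = 0.190, limma) and Zbtb46 (0.01 ± 0.21, 0.986), and of macrophages, Adgre1 (0.09 ± 0.24, 0.814), did not pass. Itgax did pass without HSC replicate 2 (0.81, 0.0127) and C1qa without CD4+ T cell replicate 2 (1.45, 0.0132). Of 15 neutrophil genes 6 were lower in T cells and 0 higher, with a median of -1.40, and this share called was near the 37.8% of all genes. Ngp was at 8.20, 11.01 and 7.84 in HSC and at 4.60 and 5.22 in T cells (-4.10 ± 0.78), Chil3 at 5.26, 8.06 and 5.22 and at 2.73 and 2.22 (-3.70 ± 0.80) and S100a8 at 5.95, 9.79 and 6.10 and at 3.86 and 5.01 (-2.85 ± 0.90). HSC replicate 2 was the high array for all 3, and without it S100a8 changed by -1.59 (0.0528). Without CD4+ T cell replicate 1, 3 neutrophil genes were called and S100a8 gave -2.27 (0.155). The dendritic cell and macrophage list summed to 1694 to 2700 on HSC arrays and 3726 to 5198 on T cell arrays, and the neutrophil list to 544 to 4379 and 188 to 254.

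**Figure D5:**
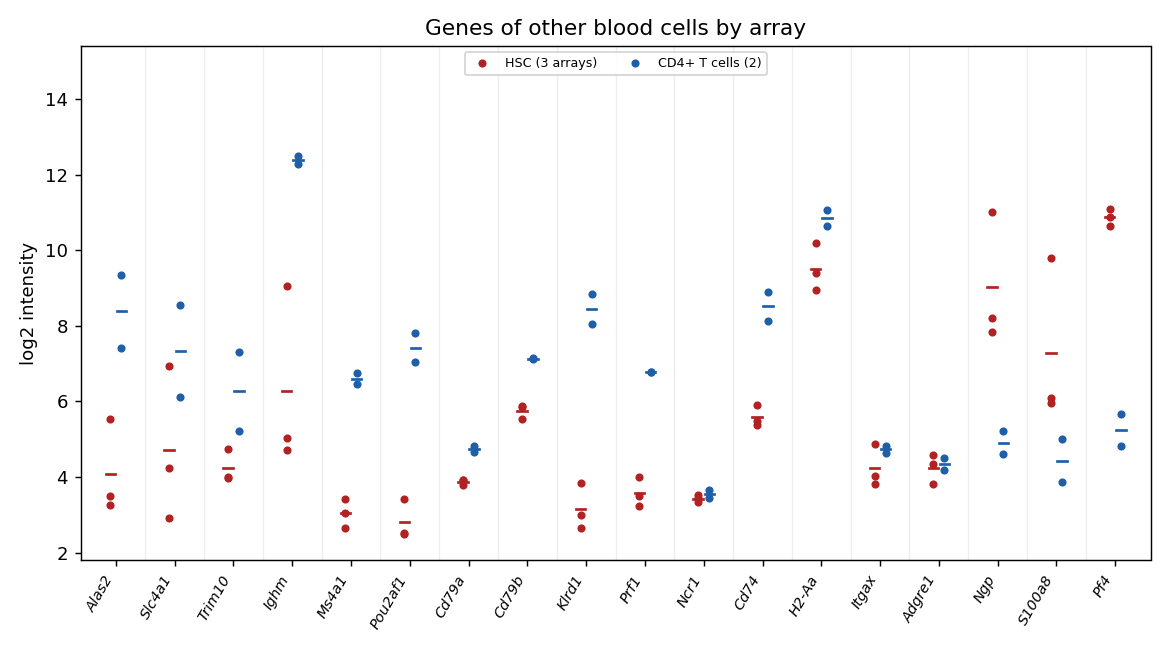
Log2 intensity of genes of red cells, B cells, NK cells, antigen-presenting cells, neutrophils and platelets on the HSC (3) and CD4+ T cell (2) arrays, as points, with group means as short lines. Ighm (12.28 and 12.49), Alas2 (7.42 and 9.35) and Klrd1 (8.83 and 8.04) are high on the T cell arrays, Ncr1, Itgax and Adgre1 lie together, and 1 HSC array, replicate 2, is high for Ngp (11.01) and S100a8 (9.79).

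Mast cell and basophil genes had 3 of 12 lower and 1 higher (median -0.08), the lower ones being Cpa3 (-2.67 ± 0.24), Ms4a2 (-1.70 ± 0.37) and Mitf (-1.59 ± 0.27), of which Ms4a2 and Mitf gave 0.09 and 0.24 on their next brightest probe sets. Stroma and endothelium genes had 5 of 19 lower and 1 higher (median -0.14). Bgn, a matrix proteoglycan that HSC arrays also held, was at 8.05 and 3.68 on average (-4.37 ± 0.25), and the adhesion molecule Pecam1 was the higher member (1.81 ± 0.31, and 1.08 without CD4+ T cell replicate 1). The shares of called members, 33.3% and 31.6%, were near the 37.8% of all genes.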

How the data were processed

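Total RNA of sorted cells was hybridised to Affymetrix arrays, 1 sample per array. The authors deposited 1 linear intensity per probe set and array, made with RMA per the submitters' processing notes (version and the arrays normalised together not given in the sources used here). The log2 of these intensities was taken. Of 45101 probe sets, 34945 had a single symbol, 932 several and 9160 none, and 64 were controls. Each of 18193 genes took its single-symbol probe set with the highest mean over all 12 arrays. Group means were fitted over all 12 arrays with limma 3.58.1 (R 4.3.3), whose adjusted p-values follow Benjamini-Hochberg, because an exact permutation test of 2 against 3 arrays cannot reach the threshold. Arrays give no counts, so their number limits the precision. The script was tested on simulated data.

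Lists were described by counts and medians. The members and lists were chosen with earlier results of these data known. Named genes are the sort markers, the 12 largest rises and 12 largest falls without overlap between arrays (clone names, gene models, sex-linked genes, sort markers, Cd3g and Meis1 left out), all members of the receptor, signalling, T and stem cell factor and Gimap lists, up to 4 called members per direction of other lists, and defining markers of other cells. Foxp3, Ctla4, Pdcd1, Icos, Thy1, Cd69, Cd40lg, Cd226, Cd52, Tbx21, Bcl6, Ifng, Il2, Il5, Il10, Il13, Il17a, S1pr1, Il2rb, Tek, Gata1, Klf1, Fech, Gp1bb, Cd79b, Ebf1, Mki67, Cenpa, Kif23, Pcna, Gins3, Rpa1, Ccnd2, Cdkn1b, Hspa1a, Cdkn1a, Nr4a1, Hoxa2, Hoxa7, Hoxa11, Hoxb4, Dnmt3a, B2m, Ezh2, Ezh1 and Bcl2 were chosen after their values were seen. Some genes of these lists are not reported here. Alternatives were quantile and cyclic loess normalisation, an offset of 16, other probe sets, a filter on low genes, other sets of arrays, the replicate block and each array left out.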

Additional observations from a re-analysis of the deposited data

How the results depend on the processing

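The count of 6879 called genes stayed within 1.5 times under every setting run, from 5458 to 7144, and from 5797 to 6770 with each array left out. Same-numbered HSC and T cell arrays deviated together weakly (r = 0.038 and 0.142 over genes for numbers 1 and 2). These values cannot settle pairing, because the 2 T cell arrays deviate from their mean as mirror images. Numbers were taken as names, as the 2 groups came from different studies. With the replicate block 7113 genes were called. Higher genes were 45.0% of those called, 50.2% under cyclic loess and 51.0% on the next brightest probe set. There 4606 of the calls were shared, among them genes with 1 probe set, which kept it, and 230 had the opposite sign. On that probe set the difference turned for Zap70 (2.83), Plcg1 (-0.55), Vav1 (-1.19), Dgkz (1.66), Nfatc2 (-0.54), Runx3 (0.38), Tcf12 (0.08), Rora (-0.28), Aff3 (2.24), Zfpm1 (0.06), Cebpb (0.81), Eif2s3y (0.18), Cd82 (-0.60), Socs2 (-1.79), Mmrn1 (0.01), Pax5 (0.25), Ms4a2 (0.09), Mitf (0.24), E2f8 (0.19), Clspn (0.08), Ndufc2 (0.68), Utp18 (-0.02), Bcl2l2 (0.11), Bad (0.78), Bcl2l1 (0.19), Phc3 (-0.17), Asxl1 (0.25), Plagl1 (-0.07), Grb10 (0.03) and Bcl6 (-0.12), and for the median of the ribosome biogenesis list (0.06). There 2 mast cell and 2 developmental genes were called. Averaging all probe sets of a gene, it turned for Zap70 (2.19), Dgkz (0.78), Aff3 (0.99), Socs2 (-0.16), Ndufc2 (0.24) and Bad (0.06), and 15 ribosome biogenesis genes were called. When HSC replicate 1 alone stood for HSC, Xist gave -1.09, Eif2s3y 0.13 and 1 developmental gene was called. With each array left out, Nr4a1 ranged from -0.65 to 0.73. Of 15 neutrophil genes 3 were called with that array alone, with an offset of 16, with only the 5 arrays and with an intensity trend and robust spread. With each array left out, 3 to 8 neutrophil and 1 to 4 developmental genes were called, and medians were -0.32 to 0.09 for glycolysis and -0.08 to 0.12 for the BCL2 family. With the genes under the lower quartile left out the glycolysis median was -0.28. The cause of these changes was not tested. Probe sets of named genes were also fitted one by one, a choice made after seeing the data, and of 9010 genes with several, 487 (5.41%) were called higher on one and lower on another. Signals near the lower quartile limit the folds.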

Other observations

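Other gene groups are given beside the 37.8% of all genes called, 17.0% higher and 20.8% lower in T cells. Of 29 interferon response genes 18 were higher and 4 lower (75.9% called), with a median of 0.97. Ifit1, an antiviral RNA-binding protein, was at 5.89, 4.84 and 5.60 in HSC and at 8.22 and 8.34 in T cells (2.84 ± 0.30), and the GTPase genes Igtp (2.02 ± 0.19) and Gbp2 (1.91 ± 0.15) were higher, while Oasl2 was at 6.79 to 7.28 and at 4.98 and 4.85 (-2.13 ± 0.21) and the RNA sensor Ifih1 was lower (-1.31 ± 0.20). Of 15 genes of MHC class I and antigen processing 10 were higher and 2 lower (80.0% called). B2m, the light chain of class I, was at 11.88 to 12.43 and at 13.24 and 13.20 (1.04 ± 0.19), and the immunoproteasome subunit genes Psmb9 (1.51 ± 0.19) and Psmb10 (1.51 ± 0.20) were higher, whereas the chaperone genes Canx, at 12.48 to 12.88 and at 10.68 and 10.81, and Calr (-1.27 ± 0.20) were lower.

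Of 13 DNA methylation genes 5 were lower and 1 higher (46.2% called, near the share of all genes). Uhrf1, which guides maintenance methylation at replication, was at 9.32 to 9.58 in HSC and at 4.88 and 5.32 in T cells (-4.34 ± 0.20). The methyltransferase genes Dnmt3b (-3.29 ± 0.31), Dnmt1 (-2.21 ± 0.21) and Dnmt3a (-1.74 ± 0.24) and the oxidase gene Tet1 (-2.74 ± 0.21) were lower, and the reader Mbd2 was higher (2.35 ± 0.20). Polycomb and Trithorax genes split, 15 of 38 higher and 10 lower (65.8% called), with the methyltransferase Ezh2 at 9.74 to 9.91 and at 8.24 and 8.04 (-1.67 ± 0.17) and its relative Ezh1 at 7.93 to 8.08 and at 9.21 and 8.77 (0.99 ± 0.18). Of 21 imprinted genes 8 were lower and 4 higher (57.1% called). Ndn was at 9.05 to 9.34 and at 3.84 and 3.88 (-5.31 ± 0.18), Grb10 at 9.75 to 9.89 and at 3.57 and 3.67 (-6.18 ± 0.18, and 0.03 on its next brightest probe set), and Igf2r was higher (3.12 ± 0.25). Of 15 genes of the BCL2 family 5 were higher and 4 lower, with the survival gene Mcl1 (0.86 ± 0.15) and the death gene Bmf (1.99 ± 0.23) among the higher and Bcl2 at 8.65 to 9.34 and at 9.03 and 8.88 (0.05 ± 0.21, adjusted p = 0.894, limma). Of 35 developmental regulators of tissues other than blood, 1 was higher and 3 lower (11.4% called, below the share of all genes), with Hnf4a at 6.75 to 7.07 and at 4.27 and 4.44 (-2.54 ± 0.18).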
